A study of Mus musculus with 2 samples.

Results

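The heparan sulfate and glycocalyx genes of GFP-positive cells sorted from embryonic kidneys were described in 2 arrays. The set comprised the genes that build heparan sulfate chains, the enzymes that trim them, the syndecans and glypicans that carry them, and the synthases and hyaluronidases of hyaluronan, chosen by gene symbol. Of 18193 genes measured by a probe set with 1 annotated gene, 39 were members. A further 4 symbols covered by the rule, Ndst1, Xylt1, Hs3st5 and Hyal1, had no such probe set and were not analysed here. Each array held RNA of 1 pool of approximately 5 to 10 kidneys from embryos of the CD-1 strain, sex unknown, that carried the transgene Tg(TIE2GFP)287Sato and were at E15.5, which the labels place at Theiler stage 23. In this transgene GFP is driven by the promoter of Tie2 (Tek), a receptor of endothelium that some blood cells also use, and GFP-positive cells were sorted after trypsin treatment. Macrophage markers (9 of 9) and renal stroma markers (11 of 12) were above background beside endothelial ones (13 of 13). The share of all genes was 61.0%. Lower shares were seen for mural and mesangial (4 of 7), platelet (3 of 6) and nephron progenitor markers (3 of 6). Podocyte (2 of 4) and ureteric and tubule markers (4 of 9) were lower too. Which cells gave the signal of a member was not tested. The samples are titled FLK1_1 and FLK1_2 and formed a single group, called replicate 1 and replicate 2 below. The labels give the source as the endothelium of renal artery and vein, while the protocol dissociated whole kidneys, and separate litters are not stated. No control or other cell type was analysed here, so there is no contrast and no p-value, and the spread between the arrays may be technical.

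Heparan sulfate is a long sugar chain that is built in the Golgi on core proteins and then sulfated at several positions. On endothelium it forms, together with hyaluronan, a surface layer called the glycocalyx. Its sulfation pattern determines which growth factors, such as VEGF and FGF, and which clotting inhibitors can bind. In the developing kidney, mice that lack certain of these enzymes form no kidney, and glypicans affect branching of the ureteric bud.

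Intensities are in arbitrary units and are given for replicate 1 and then replicate 2. A gene was called above background when it exceeded a limit, 202.5 on replicate 1 and 204.1 on replicate 2, on both arrays. The limit is the 95th percentile of 83 probe sets for olfactory, vomeronasal and taste receptors. Intensities of different genes depend on their probe sequences and were not ranked against each other. Log2 differences are replicate 1 minus replicate 2, after an offset of -0.03 was removed, so negative values lie toward replicate 2, and folds are on this centred scale.

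Of the 39 members, 27 (69.2%) were above background on both arrays, against 61.0% of all genes. Another 3 members exceeded the limit in replicate 2 only, and 9 on neither array. Counted by probe set, 42 of 79 (53.2%) passed on both arrays, against 55.0% of all probe sets with 1 gene. The share by gene was higher with more probe sets, both for members and for all genes. With 1 probe set, 11 of 19 members passed (57.9%, all genes 44.5%), with 2 probe sets 5 of 7 did (71.4%, all genes 70.4%), and with 3 or more 11 of 13 did (84.6%, all genes 86.1%).

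**Figure D1:**
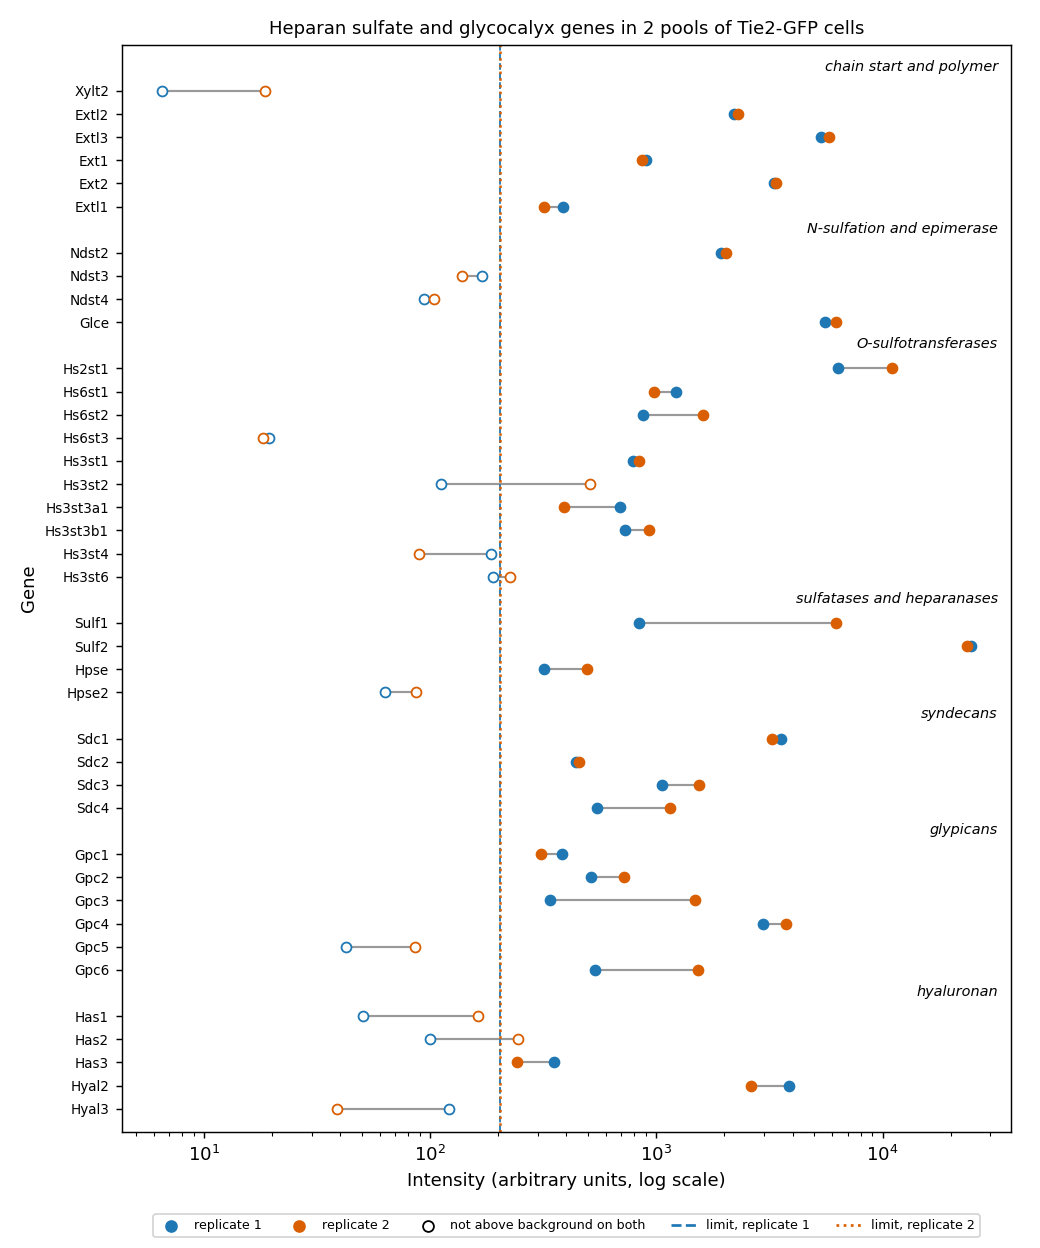
Intensity of each of the 39 members (rows, grouped by role) on replicate 1 (blue) and replicate 2 (orange), on a log axis in arbitrary units, with the background limits of 202.5 and 204.1 as vertical lines and open circles for members not above background on both arrays. The longest line among filled circles is that of Sulf1, from 833.8 to 6235, and 27 members lie right of both limits.

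Apart from Xylt2, the genes that start and extend the chain were above background, each on at least 1 probe set. Extl3, which adds the first N-acetylglucosamine and so commits a chain to heparan sulfate, gave 5339 and 5785. Ext1 and Ext2, which together form the polymerase, gave 897.3 and 865.3, and 3316 and 3385. The log2 differences of Extl3, Ext1 and Ext2 were -0.08, 0.09 and 0.00. The second Ext1 probe set, also above background, gave 263.6 and 394.3 and lay on the other side, at -0.55. Of the probe sets, 1 of 2 for Extl3 and 1 of 3 for Ext2 were above background. Extl2, a transferase that acts on the linker region, gave 2197 and 2292, and its second probe set (1626 and 1903) was above background as well. Extl1, a transferase of chain elongation, gave 385.2 and 317.8. Xylt2, which attaches the xylose on which chains begin, was below the limit on both arrays, at 6.52 and 18.6, on its 1 probe set. Its relative Xylt1 was not analysed. In all, 5 of 6 measured members of this step were above background, against 61.0% of all genes. Those 5 had log2 differences from -0.08 to 0.31 on the probe sets that stand for the genes.

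For the next step, N-sulfation, the measured genes fell on either side of the limit, and Ndst1 was not analysed. Ndst2, an N-deacetylase and N-sulfotransferase, gave 1933 and 2027. Its relatives Ndst3 (169.7 and 138.6) and Ndst4 (93.4 and 103.7) were below the limit on every probe set, of which Ndst3 had 2 and Ndst4 had 3. Glce, the epimerase that turns glucuronic into iduronic acid, gave 5589 and 6250.2, with 1 of its 3 probe sets above background. Ndst2 and Glce had log2 differences of -0.03 and -0.13, both smaller than the SD of 0.51 over all genes above background.

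Of the O-sulfotransferases 6 of 10 were above background, against 61.0% of all genes. Hs2st1, which sulfates iduronic acid at the 2-O position and without which mice lack kidneys, gave 6336 and 11057. Its 4 probe sets were all above background, but they did not share a direction. The chosen probe set had a log2 difference of -0.77, another had -0.55, and the remaining 2 had 0.11 and 0.24. Hs6st1 and Hs6st2 sulfate glucosamine at the 6-O position. Hs6st1 gave 1222 and 979.9, and Hs6st2 gave 874.3 and 1599.5 with 1 of 4 probe sets above background. Hs6st3 was below the limit at 19.4 and 18.2.

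The 3-O-sulfotransferases add the rarest modification. Hs3st1, which makes the sites that antithrombin binds, gave 790.0 and 838.7. Hs3st3a1 (693.0 and 390.6) and Hs3st3b1 (723.1 and 930.4) have very similar catalytic domains, and their probes could share targets. This was not checked, so each value is uncertain. The log2 differences of Hs3st3a1 and Hs3st3b1 had opposite signs, 0.86 and -0.33, and neither passed 2-fold. Hs3st4 was below the limit on both arrays (186.2 and 89.2). Hs3st2 (111.8 and 506.7) and Hs3st6 (189.3 and 225.3) were above it in replicate 2 only. For Hs3st2 this rested on 1 of 3 probe sets, the others giving 110.5 and 66.9, and 177.9 and 169.2.

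The extracellular sulfatases Sulf1 and Sulf2 remove 6-O-sulfate from finished chains, and both were above background. Sulf2 gave 24564 and 23709.5 on its brightest probe set, but far less on the others, 4276 and 2125, and 1614 and 977.9. Sulf1 gave 833.8 and 6235, a log2 difference of -2.87, or 7.30-fold higher in replicate 2. Sulf1 thus had the largest difference among the 27 members above background. Its other probe sets went the same way, from 282.8 to 3017 (10.4-fold) and from 20.8 to 248.0, the latter below the limit in replicate 1. The 3 probe sets of Sulf2 were all above background and all lay on the replicate 1 side, with log2 differences of 0.09, 0.76 and 1.04. The size for Sulf2 therefore depends on the probe set, while the sign was shared.

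Heparanase, encoded by Hpse, cleaves the chains, and platelets and leukocytes are rich in it. Hpse gave 319.5 and 493.3, a log2 difference of -0.59. All macrophage markers (9 of 9, all genes 61.0%) were above background, with summed intensities of 83858 and 92363. Of the platelet markers 3 of 6 were, with sums of 14448 and 15241, but most of that was Pf4 (13136 and 13626). Gp9 and Treml1 were below the limit on both arrays, and Gp6 exceeded it in replicate 2 only. The part of macrophages and platelets in the Hpse signal was not tested. Hpse2, a relative without this activity, was below the limit (63.2 and 86.3).

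**Figure D2:**
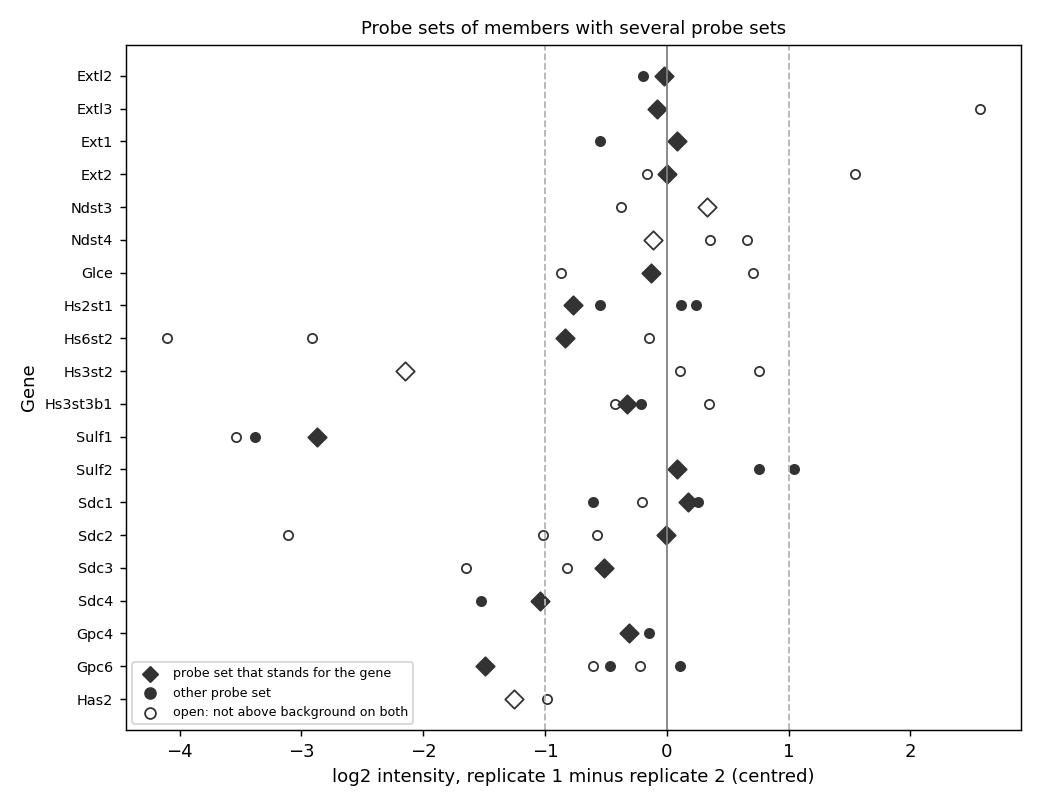
Each point is a probe set of one of the 20 members with several probe sets, at its log2 intensity in replicate 1 minus that in replicate 2, with diamonds for the probe set that stands for the gene, open symbols for probe sets not above background on both arrays, and dashed lines at 2-fold. The Sulf1 probe sets all lie left of the 2-fold line, between -3.54 and -2.87, whereas those of Gpc6 spread from -1.49 to 0.11.

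Among these 20 members, 6 had every probe set above background, 4 had none and 10 had some, so a gene called above background could hold probe sets that were not. Members with a single probe set, 19 in all, have no such check.

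All 4 syndecans, core proteins that span the membrane, were above background, against 61.0% of all genes. Sdc1 gave 3564 and 3240.3 with 3 of 4 probe sets above background. Sdc2, of vessels and mesenchyme, gave 442.6 and 456.3, and Sdc3 gave 1054 and 1543, each with 1 probe set above background. Sdc2 had 3 other probe sets below the limit on at least 1 array, and Sdc3 had 2. Sdc4, a syndecan of focal adhesions, gave 544.3 and 1148, or 2.06-fold higher in replicate 2, and its second probe set went from 232.0 to 683.3 (2.88-fold). Both Sdc4 probe sets were above background on both arrays.

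Of the glypicans, which are held to the membrane by a lipid anchor, 5 of 6 were above background, against 61.0% of all genes. Gpc3, a growth-restraining glypican whose loss enlarges the embryo, gave 337.8 and 1477, a log2 difference of -2.09 (4.27-fold) on its 1 probe set. Gpc4 gave 2962 and 3755, with log2 differences of -0.31 and -0.14 for its 2 probe sets. Gpc3 and Gpc4 are neighbours on the X chromosome, with 0 protein-coding genes between them. Gpc6 gave 532.7 and 1535 (2.81-fold), but another Gpc6 probe set gave 693.6 and 659.3, and yet another gave 367.7 and 521.9. The Gpc6 difference is therefore not shared by its probe sets. Gpc5, the neighbour of Gpc6 on chromosome 14, was below the limit on both arrays (42.3 and 85.6). Gpc1 (381.5 and 308.5) and Gpc2 (516.1 and 721.3) had 1 probe set each and log2 differences of 0.34 and -0.45.

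Promoter sequences were taken from RefSeq (GRCm38.p6) for 29 of the 39 members, as 250 bases before and 50 after a gene's start, and the first listed start was used where there were several. There was no entry for Ext1, Extl3, Sulf1, Sdc2, Gpc1, Gpc6, Has2, Has3, Hs3st6 and Ndst4. The promoters below are those of the neighbours Gpc3 and Gpc4, of Sdc4, and of Sulf2, so that 2 members over 2-fold higher in replicate 2 stand beside 2 that were not. They lie at chrX:52613925-52614224, chrX:52164874-52165173, chr2:164443139-164443438 and chr2:166155634-166155933, all on the minus strand. Capitals mark GC boxes, the letters GGGCGG on either strand, which can bind Sp1-type factors.
Gpc3: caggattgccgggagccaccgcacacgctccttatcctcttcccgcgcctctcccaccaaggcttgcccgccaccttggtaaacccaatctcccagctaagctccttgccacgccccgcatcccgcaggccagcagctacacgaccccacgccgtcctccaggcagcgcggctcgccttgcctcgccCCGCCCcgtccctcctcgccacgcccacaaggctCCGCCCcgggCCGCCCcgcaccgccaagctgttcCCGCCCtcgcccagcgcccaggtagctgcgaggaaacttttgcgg
Gpc4: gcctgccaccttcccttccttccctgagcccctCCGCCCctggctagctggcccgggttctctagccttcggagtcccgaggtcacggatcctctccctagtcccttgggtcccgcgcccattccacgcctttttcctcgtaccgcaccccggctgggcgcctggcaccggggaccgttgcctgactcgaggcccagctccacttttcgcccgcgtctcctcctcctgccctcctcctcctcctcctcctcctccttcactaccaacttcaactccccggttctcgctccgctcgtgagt
Sdc4: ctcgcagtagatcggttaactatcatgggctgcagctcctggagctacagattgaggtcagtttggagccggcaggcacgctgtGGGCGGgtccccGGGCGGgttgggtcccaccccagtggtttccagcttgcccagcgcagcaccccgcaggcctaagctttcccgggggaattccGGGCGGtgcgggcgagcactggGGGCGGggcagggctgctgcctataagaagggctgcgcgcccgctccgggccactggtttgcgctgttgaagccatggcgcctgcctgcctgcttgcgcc
Sulf2: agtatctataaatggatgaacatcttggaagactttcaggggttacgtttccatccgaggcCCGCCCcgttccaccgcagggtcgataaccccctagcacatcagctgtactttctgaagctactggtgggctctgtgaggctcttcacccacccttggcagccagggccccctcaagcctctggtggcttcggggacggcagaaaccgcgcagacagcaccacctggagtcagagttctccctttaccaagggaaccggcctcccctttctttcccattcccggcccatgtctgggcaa

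The Gpc3 promoter held 30 CpG dinucleotides and 4 GC boxes, that of Gpc4 22 and 1, that of Sdc4 22 and 4, and that of Sulf2 12 and 1. Over all 32841 promoters of that length 35.7% held a GC box. Among members above background 16 of 20 did (80.0%), as did 65.8% of all genes above background. Among members not above background 6 of 9 did (66.7%), against 34.5% of such genes. The median number of CpG dinucleotides was 22.5 in members above background and 21.0 in all genes above background. In members not above background it was 17.0, with a range from 1 to 47, and in all such genes 7.0. Hs3st4 and Hs6st3, both below the limit on both arrays, had 47 and 41. The letters TATAAA, searched on both strands, occurred in 2 of 20 members above background (10.0%), against 6.76% of all genes above background, and in 1 of 9 other members (11.1%), against 806 of 5357 such genes. Over all promoters the share was 13.6%.

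**Figure D3:**
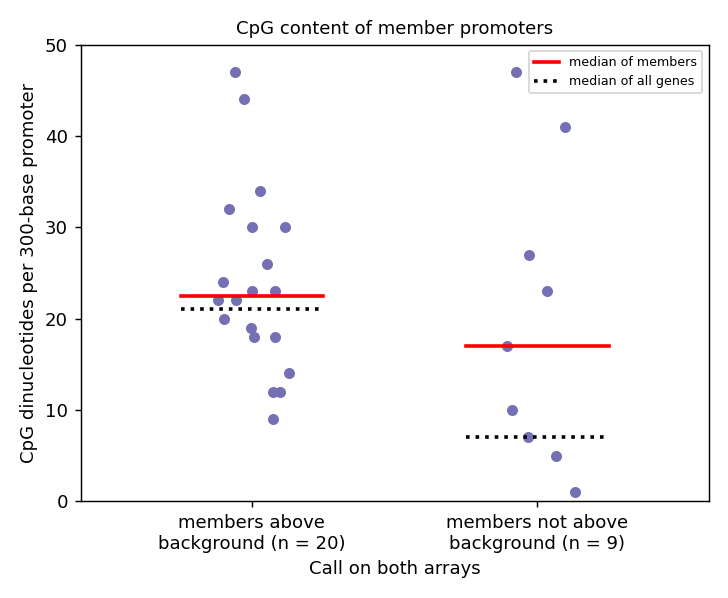
Number of CpG dinucleotides in the 300-base promoter (y axis) of each member with a RefSeq entry (points), split by whether it was above background on both arrays, with red lines at the members' medians (22.5 and 17.0) and dotted black lines at the medians of all genes with the same call (21.0 and 7.0).

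Hyaluronan is made at the membrane by 3 synthases. Has3 was above background, close to the limit, at 352.8 and 241.4. Has1 was below it (50.3 and 163.3), and Has2, the synthase needed for the embryonic heart, exceeded it in replicate 2 only (99.8 and 243.5), with a second probe set below it on both arrays (69.0 and 140.2). Hyal2, a hyaluronidase on the cell surface, gave 3853 and 2629, and Hyal3 gave 120.7 and 38.7, below the limit on both arrays. The log2 differences of Has3 and Hyal2 were 0.58 and 0.59.

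Between the pools, 17 of the 27 members above background lay toward replicate 2 and 10 toward replicate 1, with a median log2 difference of -0.05, against 0.04 for all genes above background. Within 1.2-fold were 10 members (37.0%, all genes 44.7%). Over 2-fold higher in replicate 2 were 4 members, Sulf1, Gpc3, Gpc6 and Sdc4 (14.8%), against 2.57% of all genes above background. No member was over 2-fold higher in replicate 1 (0 of 27), against 2.26% of all genes. The SD of the log2 difference was 0.82 for the members and 0.51 for all genes above background. With 1 array per pool these differences have no replicate check.

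Markers of renal stroma were higher in replicate 2, as the 4 members were on the probe sets that stand for them. This list was chosen with earlier results of these data known. Of 12 stromal markers 11 were above background (91.7%, all genes 61.0%). Of these 11, 10 were over 2-fold higher in replicate 2, against 2.57% of all genes above background. The summed intensities of the list were 28054 and 97122. Tcf21 was below the limit in replicate 1. Pdgfra, a receptor of stromal fibroblasts, gave 719.8 and 4811. Mural and mesangial markers had sums of 6640 and 11360.3, a ratio of 1.71 (replicate 2 over replicate 1), with 4 of 7 above background. Tagln (98.8 and 334.4) and Myh11 (32.4 and 277.85) exceeded the limit in replicate 2 only, and Des was below it on both arrays. All 7 had a lower intensity in replicate 1. Of 13 endothelial markers all were above background, with sums of 167804 and 151110.0. The ratio of summed intensities, replicate 2 over replicate 1, was 0.901 for endothelial and 3.46 for stromal markers. The endothelial markers did not share a direction, as 10 lay toward replicate 1 and 3 toward replicate 2. Those 3 were Tek (1.32-fold), whose promoter drives the GFP, Kdr (1.33-fold) and Pecam1 (1.745-fold). No marker of these 3 lists was at 0, but this does not show expression, since Des gave 77.5 and 106.4, below the limit. The part of stromal cells in the differences of Sulf1, Gpc3, Gpc6 and Sdc4 was not tested, and in such pooled material more cells of a type and more RNA per cell cannot be told apart. Nephron progenitor markers (3 of 6 above background) had sums of 1866 and 2449.5, a ratio of 1.31, and ureteric and tubule markers (4 of 9) had sums of 2233 and 2646, a ratio of 1.19. Podocyte markers (2 of 4) had sums of 31113 and 32852, but most of that was Podxl (29868 and 30059.6), which endothelium also expresses. Of the other podocyte markers, Synpo gave 1012 and 2346, or 2.26-fold higher in replicate 2, Wt1 gave 144.0 and 346.8, above the limit in replicate 2 only, and Nphs1 was below it (89.1 and 100.2).

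**Figure D4:**
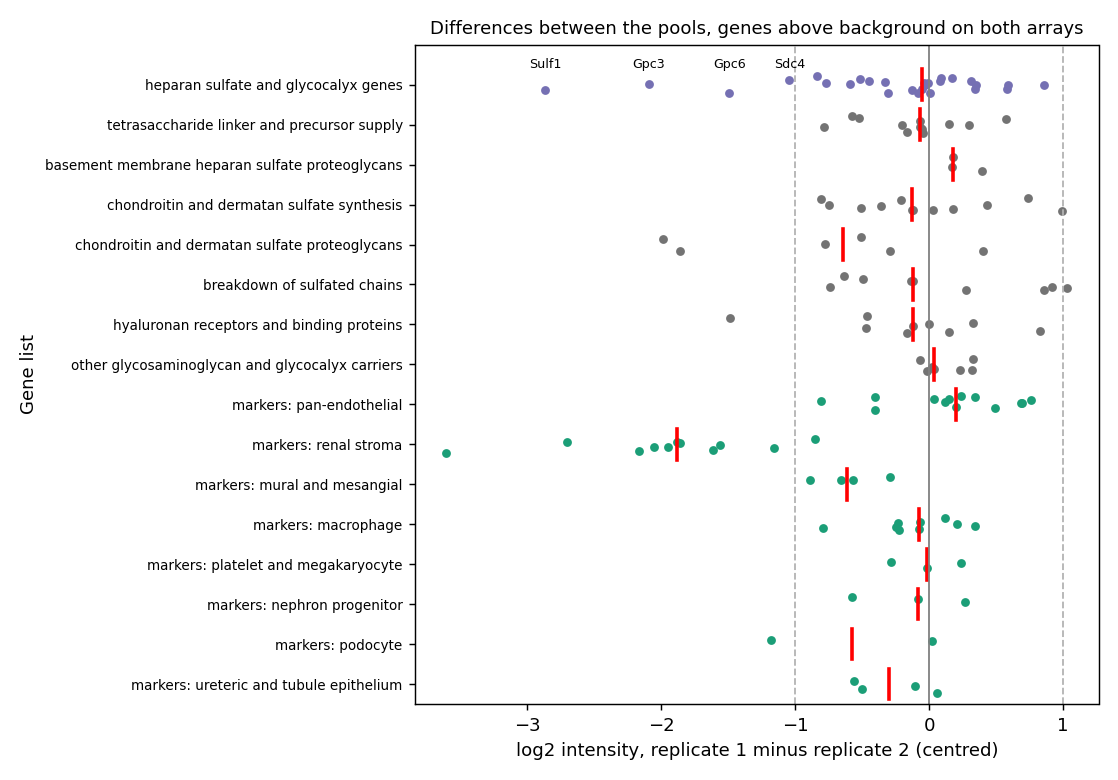
Each dot is a gene above background on both arrays, placed at its log2 difference (replicate 1 minus 2), for the members, 7 related pathway lists and 8 lists of cell type markers, with list medians in red and dashed lines at 2-fold. Sulf1, Gpc3, Gpc6 and Sdc4 lie left of the 2-fold line, as do 10 stromal markers, whose list has a median of -1.88, while the members' median is -0.05.

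The supply of precursors and of the linker on which chains are built was above background throughout, at 12 of 12 measured genes. The linker transferases B4galt7 (963.9 and 1033), B3galt6 (539.6 and 371.7) and B3gat3 (700.7 and 739.6) were among them, and none of the 12 differed by over 2-fold. The heparan sulfate proteoglycans of basement membrane were all above background too, Hspg2 (perlecan) at 1702 and 1537, Agrn (agrin) at 19405 and 17621, and Col18a1, the source of endostatin, at 19337 and 15028. These 3 lay toward replicate 1, by 0.17 to 0.40 on the log2 scale.

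Genes that make chondroitin and dermatan sulfate, the sister chains of heparan sulfate, were above background in 12 of 15 cases (80.0%, all genes 61.0%). The polymerase gene Chsy1 gave 23859 and 31297 and Chpf gave 318.2 and 376.7. Chsy3 (94.9 and 97.9) was below the limit, and the sulfotransferases Chst3 (109.0 and 255.0) and Chst13 (38.8 and 224.3) exceeded it in replicate 2 only. Proteoglycans that carry these chains were above background in 6 of 10 cases, near the share of all genes (60.0%, all genes 61.0%). Vcan (versican) gave 1020.4 and 4139.9 (3.96-fold), and Dcn (decorin), which is also one of the stromal markers, gave 992.6 and 3689.7 (3.63-fold). Bgn (biglycan) gave 4057 and 5922. Cspg5 (192.9 and 111.7), Acan, the proteoglycan of cartilage (159.0 and 179.6), and Bcan, of brain (155.1 and 121.2), were below the limit.

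A list of genes for breaking down sulfated chains was above background at all 9 measured genes. Of these, 3 do not act on heparan sulfate in the lysosome themselves. Arsb and Galns are lysosomal sulfatases of other glycosaminoglycans, and Sumf1 activates sulfatases in the endoplasmic reticulum. Idua, the iduronidase, gave 918.8 and 1035, Ids, the iduronate sulfatase, gave 1075 and 1713, and Sgsh, the sulfamidase, gave 1017 and 550.8. Naglu, the N-acetylglucosaminidase, gave 1682 and 841.7, and at 2.05-fold was over 2-fold higher in replicate 1. Hyaluronan receptors and binding proteins were above background in 9 of 12 cases (75.0%, all genes 61.0%). Cd44 gave 2159 and 2475 and Stab1 gave 11847 and 12151. Lyve1, found on lymphatic endothelium and on some macrophages, gave 5782 and 16595 (2.80-fold). Tnfaip6 (53.7 and 125.5), Itih2 (89.97 and 63.5) and Habp2 (160.0 and 103.9) were below the limit. Other carriers of sugar chains on endothelium were above background at 7 of 7, among them Tgfbr3 (betaglycan) at 10844 and 9459.7, Nrp1 at 21273 and 22005 and Podxl, each within 1.2-fold.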

How the data were processed

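RNA of GFP-positive cells from 2 pools of E15.5 kidneys, 1 group, was amplified in 2 rounds, labelled with biotin and hybridised to 1 Affymetrix 3' expression array each. The authors deposited 1 intensity per probe set (45101 in all) on a linear scale, without detection calls. The submitters' processing notes name GCOS, with no version. The trimmed mean, without the outer 2% of values at each end, was 1500.01 on both arrays, so a shared scaling had been applied before deposit. Since the study's methods concern a different array and amplification, they were not applied here.

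Probe sets with 1 gene in the platform annotation (34945) named 18193 genes, and control probe sets were left out. Where a gene had several probe sets, the brightest by mean log2 intensity stood for it, which favours genes with many probe sets. The limit was set as stated above. Log2 differences were centred by equalising the medians of probe sets above background. All members are named. Of each related list, the first 3 measured genes are named, with those over 2-fold apart and up to 3 not above background. The members and lists were chosen with earlier results of these data known. Alternatives covered the limit, the probe set, each array alone, centring and quantile normalization. The code was tested on simulated data. Precision is limited by having 2 arrays, and the build behind the probe annotation was not stated. Python 3.11.15, numpy 2.4.6 and pandas 2.3.3 were used.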

Additional observations from a re-analysis of the deposited data

How the results depend on the processing

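The number of members above background, 27 of 39, was 30 at a limit of 100, 28 at the 90th percentile, 27 at the 99th and 21 at 2 times the limit. It was 22 with the median over the probe sets of each gene and 26 of 37 with probe sets without a suffix, and 27 to 30 on each array alone. The share of all genes above background, 61.0%, moved as well. It was 72.7% at a limit of 100, 63.4% at the 90th percentile, 56.7% at the 99th and 52.4% at 2 times the limit. With the median over probe sets it was 53.4%, with probe sets without a suffix 57.5%, and on each array alone 64.0% and 64.5%. The related lists stayed within 1.5 times their counts, with an exception. Chondroitin and dermatan sulfate proteoglycans reached 10 of 10 at a limit of 100, against 6. The added genes, Cspg5, Acan, Bcan and Ncan, had intensities between 100 and the main limit on both arrays. The median log2 difference of members above background ran from -0.12 to -0.03, and 3 to 5 members were over 2-fold apart, or 6 when replicate 2 alone had to pass the limit, which added Hs3st2 and Has2. Sulf1 and Sdc4 were over 2-fold higher in replicate 2 under each of the 8 alternatives tried for this difference. Gpc3 was so too except at 2 times the limit, which its 337.8 in replicate 1 did not reach, and Gpc6 except with the median of its probe sets (-0.47 on the log2 scale). Changing the limit or the centring moved all differences alike, and probe sets without a suffix left the Sulf1 and Sdc4 probe sets as they were. The median of probe sets gave -3.38 for Sulf1 and -1.28 for Sdc4. Quantile normalization gave -2.87 and -1.01. With the median over probe sets, Sulf2 (1.04) and Extl3 (1.24) were over 2-fold higher in replicate 1, and Hs2st1 went from -0.77 to 0.18. The Extl3 value took in a probe set below the limit on both arrays (114.4 and 19.7), while all Sulf2 probe sets were above background. With probe sets without a suffix, Sulf2 went from 0.09 to 0.76. None of Sulf1, Gpc3, Gpc6 and Sdc4 changed sign where they passed the limit. Weak signals near the limit, such as Has3, are the least certain.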
